A study of Caenorhabditis elegans with 6 samples.

Results

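The genes described here activate fatty acids and break them down by beta-oxidation. They were taken by symbol, as all genes of the deposited values whose name begins with acs-, acdh-, acox-, ech-, cpt-, daf-22, maoc- or kat-, which gave 61 of 46778 genes. By family there were 22 acyl-CoA synthetase genes (acs), 6 carnitine palmitoyltransferase genes (cpt), 13 acyl-CoA dehydrogenase genes (acdh), 7 acyl-CoA oxidase genes (acox), 10 genes of the enoyl-CoA hydratase family (ech), and the single genes maoc-1, daf-22 and kat-1. All are annotated as protein-coding. Expression was measured by RNA sequencing in whole L4 larvae of the wild-type strain N2, raised from synchronized L1 larvae at 20 °C. The control worms (3 libraries) were fed HT115 bacteria carrying the empty vector L4440, and the other worms (3 libraries) were fed HT115 bacteria producing let-607 double-stranded RNA, which the study diluted with the vector bacteria because undiluted RNAi stopped development. let-607 encodes a transcription factor related to mammalian CREBH, and the comparison asks which genes depend on it. The labels do not say whether the libraries of a group came from separate cultures, so the p-values measure the spread between these libraries, which may be technical.

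Before a fatty acid can be oxidized, an acyl-CoA synthetase joins it to coenzyme A. Carnitine palmitoyltransferases then pass long acyl chains into mitochondria, where a dehydrogenase (acdh), a hydratase (ech), a further dehydrogenase and a thiolase (kat-1 and others) remove acetyl-CoA in repeated rounds. Peroxisomes run a parallel route in which an acyl-CoA oxidase (acox) takes the first step, followed by MAOC-1, DHS-28 and the thiolase DAF-22. In C. elegans the peroxisomal route also shortens the side chains of the ascarosides, the small molecules that make up the dauer pheromone. Another route, the propionate shunt, begins with ACDH-1 and ECH-6 and degrades propionate when the vitamin B12-dependent route is not sufficient. The intestine is the main site of fat storage and breakdown in the worm.

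The deposited values are FPKM (fragments mapped to a gene, scaled to its transcript length and to the total mapped in the library). They sum to between 1400487 and 1485099 per library and hold no counts, which leaves the depth unknown and gives no counting error. By FPKM, the RNAi target itself was not reduced in the worms labelled as let-607 RNAi. The paper reports the opposite by qPCR, with lower let-607 mRNA after the diluted RNAi. The paper normalized its qPCR to snb-1, whose own FPKM was higher in the worms labelled as let-607 RNAi (values below). FPKM and qPCR are different measures, and why they differ here was not tested. let-607 (WBGene00002783) had 69.1, 57.1 and 57.3 FPKM in the controls and 71.0, 76.2 and 77.9 FPKM in the others, a log2 fold change of 0.30 (standard error 0.08, limma adjusted p = 0.034), so these libraries are called RNAi-labelled throughout. An exact permutation test of let-607 (two-sided) gave p = 0.1, the smallest value that 3 libraries against 3 allow. Markers of the tissues of a whole worm were present in every library. The summed level of 4 intestinal markers was 552 to 575 FPKM in the controls and 614 to 636 FPKM in the others, with 1 of the 4, vha-6, higher. The sum of 5 neuronal markers was 210 to 227 FPKM against 292 to 306 FPKM, with 2 of the 5 higher. These were snb-1, with means of 155 and 230 FPKM, and rab-3, with 17.4 and 20.5 FPKM. unc-119, unc-10 and ric-4 were not called. The sum of 5 spermatogenesis markers was 1120 to 1315 FPKM against 1835 to 1909 FPKM, with 4 of those 5 higher. Of all genes tested, 31.7% were higher by the same measure (limma adjusted p under 0.1). Whether these shifts have a part in the results below was not tested. In whole worms, fewer cells of a type and less RNA per cell cannot be told apart.

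Of the 61 genes, 58 reached a mean of 0.5 FPKM over the 6 libraries and were tested, together with all other genes at that level (15453 in all), with limma on log2(FPKM + 0.1). Fold changes are on that scale and understate the change of genes at low levels. acdh-2, cpt-3 and acs-24 were below this level, with at most 0.59 FPKM in any library, and were not tested. The study's criterion, a fold change over 2 at an FDR under 0.1, was met by 1 gene that rose, acs-2, and 1 gene that fell, acdh-1. Of all genes tested, 3.75% met it as higher and 1.4% as lower, beside 1 of 58 genes (1.72%) here in each direction. In the text below, "rose" and "fell" stand for any change with an adjusted p under 0.1, and "passed" for the study's criterion.

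Smaller changes were common. Without a minimum fold change, 23 of the 58 genes rose (39.7%) and 15 fell (25.9%), beside 31.7% and 11.4% of all genes tested. The 3 RNAi-labelled libraries lay wholly above the 3 control libraries for 23 of these genes and wholly below for 21 (36.2%), beside 35.7% and 13.4% of all genes tested. The median log2 fold change was 0.01 over the 58 genes and 0.12 over all genes tested. These genes were also expressed above the typical level, with a median of 49.3 FPKM against 14.9 FPKM. The direction of small changes depended on how the libraries were scaled to each other. After median-of-ratios scaling, which brings the median of all genes close to 0, 14 of the 58 rose and 26 fell, beside 18.8% and 19.3% of all genes tested. After quantile normalization, 12 rose and 24 fell, beside 16.6% and 18.9% of all genes tested. Under the 4 scalings used (FPKM as deposited, TPM, median of ratios and quantile), 12 of the 58 genes rose (20.7%) and 13 fell (22.4%) in every case, beside 15.6% and 8.56% of the 15435 genes tested in all 4. A change of any gene, in the set or outside it, is called firm below where it was called in the same direction under all 4 scalings.

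**Figure D1:**
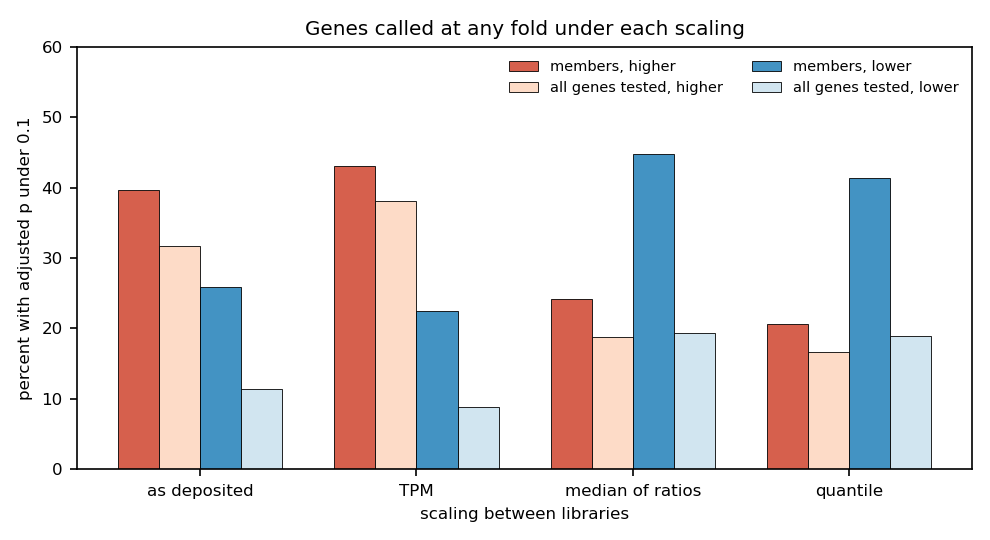
Percent of the 58 tested fatty acid genes (dark bars) and of all genes tested (light bars) with an adjusted p under 0.1, as higher (red) or lower (blue) in the RNAi-labelled libraries, under each of 4 scalings between libraries. The share of these genes that fell is above that of all genes under each scaling, while the share that rose drops from 39.7% as deposited to 14 of 58 genes after median-of-ratios scaling.

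**Figure D2:**
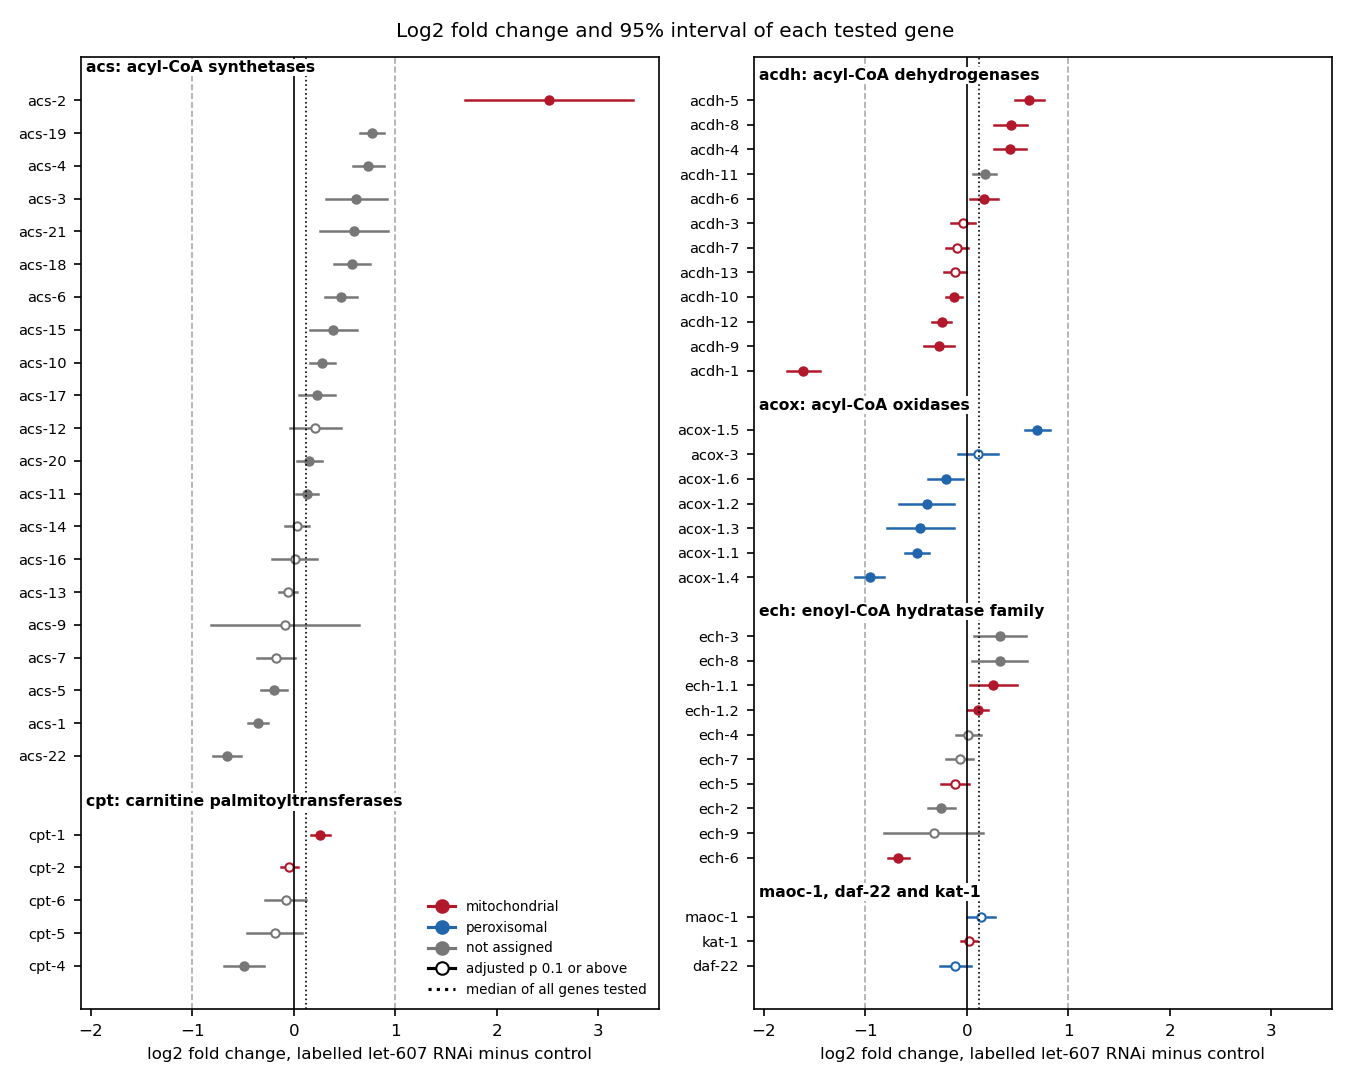
Log2 fold change (RNAi-labelled libraries minus control libraries, n = 3 each) of each tested gene with its 95% interval from limma, by family and colored by the compartment assigned to its product. Filled points have an adjusted p under 0.1, dashed lines mark a log2 fold change of 1 in either direction and the dotted line marks the median of all genes, 0.12. acs-2 at 2.51 and acdh-1 at -1.61 lie outside the dashed lines, and acox-1.4 at -0.96 lies just inside.

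The most abundant gene of the set fell most. acdh-1 (WBGene00016943, WBcel235 chromosome I from 6497436 to 6499560, plus strand) encodes a short-chain acyl-CoA dehydrogenase that opens the propionate shunt, and its transcript is known as a sensor of dietary vitamin B12. It had 746.5, 822 and 780.1 FPKM in the controls and 264, 273 and 233 FPKM in the RNAi-labelled libraries. The groups were far apart, and each RNAi-labelled library held about the same reduced level. Its mean fell from 783 ± 37.7 to 256 ± 21.1 FPKM (SD, n = 3 each), to 32.8% of the control mean, a log2 fold change of -1.61 (standard error 0.07, limma adjusted p = 2.19e-05). Among the 216 genes that passed as lower, 93 fell further. acdh-1 accounted for 49.5 to 51.3% of the summed FPKM of the 13 acdh genes in the controls and for 23.6 to 26.2% in the others.

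The other genes of the shunt fell with it. ech-6 (WBGene00001155, chromosome III from 9751552 to 9752883, minus strand), the enoyl-CoA hydratase of the same route and the second most abundant gene of the set, had 372, 404 and 405 FPKM in the controls and 249, 249 and 241 FPKM in the others. Its log2 fold change was -0.67 (standard error 0.04, limma adjusted p = 0.00011), firm but under the study's minimum of a fold change of 2. The remaining enzymes of the shunt have other names and came from a separate list of 35 pathway genes outside the 8 prefixes, of which 34 had values. hphd-1, which encodes the 3-hydroxypropionate dehydrogenase, had 227, 255 and 248 FPKM in the controls and 100.5, 104 and 104 FPKM in the others, and passed with a log2 fold change of -1.24 (standard error 0.05, limma adjusted p = 2.03e-05). hach-1, which encodes the hydrolase between ECH-6 and HPHD-1, fell from 108, 123.5 and 123 FPKM to 89.0, 92.6 and 88.8 FPKM. alh-8, the semialdehyde dehydrogenase at the end of the shunt, fell from 462 ± 12.8 to 372 ± 12.8 FPKM (SD, n = 3 each). All 5 genes of the shunt thus fell without overlap between the groups, each of them firmly, with log2 fold changes from -1.61 to -0.31. Of all genes tested, 13.4% had RNAi-labelled libraries wholly below the controls. Of the genes tested under all 4 scalings, 8.56% fell firmly. The summed level of the 5 shunt genes was 1917 to 2078 FPKM in the controls. In the others it was 1052 to 1084 FPKM, 53.4% of the control mean. The list was drawn up with the fall of acdh-1 known.

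The genes of the B12-dependent route for propionate had small log2 fold changes. pcca-1 and pccb-1, which encode the subunits of propionyl-CoA carboxylase, had log2 fold changes of 0.06 (95% interval -0.04 to 0.16) and 0.11 (0.01 to 0.21). mmcm-1, the methylmalonyl-CoA mutase that uses B12, rose from 52.9 ± 1.07 to 58.4 ± 0.832 FPKM (SD, n = 3 each), which is a log2 fold change of 0.14 (standard error 0.04, limma adjusted p = 0.0309) that lost its call after median-of-ratios scaling. Of the 6 genes of this route, 3 rose and none fell, beside 31.7% and 11.4% of all genes tested. The log2 fold changes of the 6 ranged from -0.14 to 0.17. After median-of-ratios scaling none of the 6 rose and mmab-1 fell, beside 18.8% and 19.3% of all genes tested. There pcca-1 and pccb-1 had log2 fold changes of -0.062 and -0.0099.

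**Figure D3:**
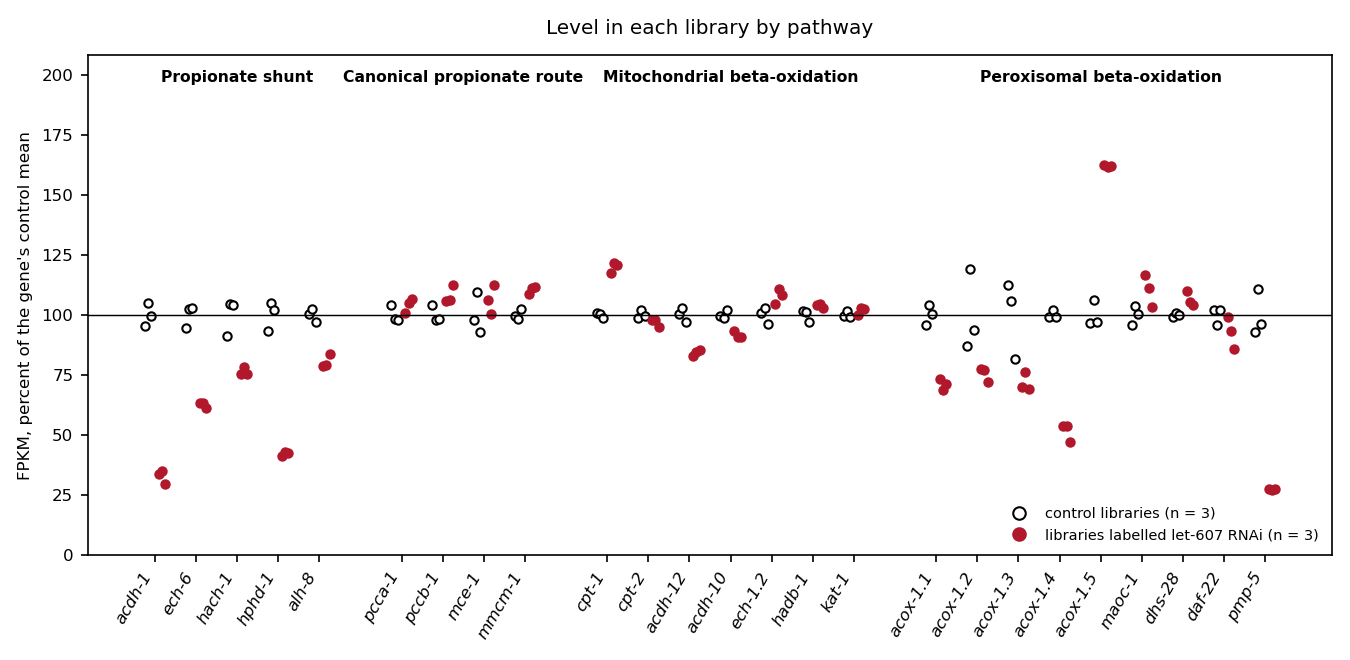
FPKM of each library as a percent of the gene's mean in the 3 control libraries (open circles, control; filled circles, labelled let-607 RNAi), for genes of the propionate shunt, the canonical propionate route, mitochondrial and peroxisomal beta-oxidation. acdh-1 at 32.8% and hphd-1 at 42.3% of the control mean stand lowest in the shunt. acox-1.1 to acox-1.4 lie between 51.6% and 75.5%, and acox-1.5 lies at 162%. pmp-5 is drawn among the peroxisomal genes by its name only.

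Outside acdh-1, the acyl-CoA dehydrogenase genes had small changes. The summed level of the other 12 genes was 761 to 779 FPKM in the controls and 753 to 770 FPKM in the others, 98.8% of the control mean. This sum, like every other sum given here, is of FPKM as deposited. Median-of-ratios scaling divides the control libraries by 0.955 to 0.967 and the others by 1.04 to 1.06. It would therefore lower the sum of the others against that of the controls. Of the 12 genes tested in the family, 5 rose and 4 fell, beside 31.7% and 11.4% of all genes tested. After median-of-ratios scaling 3 rose and 7 fell, beside 18.8% and 19.3% of all genes tested. After quantile normalization 3 rose and 6 fell, beside 16.6% and 18.9% of all genes tested. acdh-5 had the largest increase, with 14.5, 14.3 and 13.9 FPKM in the controls and 20.8, 22.7 and 22.2 FPKM in the others, a log2 fold change of 0.62 (standard error 0.06, limma adjusted p = 0.000521). acdh-4 and acdh-8, named after their values were seen, rose by 0.43 each on the log2 scale. These 3 increases were firm, while those of acdh-6 and acdh-11 lost their call after median-of-ratios scaling. acdh-11, whose product binds fatty acids of medium length and limits fat desaturation in heat, had 37.3 ± 1.56 and 42.3 ± 0.441 FPKM (SD, n = 3 each).

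Small decreases were measured for acdh-12, acdh-9 and acdh-10. acdh-12, related to the mammalian very long-chain dehydrogenase, had 121, 124.5 and 117 FPKM in the controls and 100.1, 102 and 103.5 FPKM in the others, without overlap. Its log2 fold change was -0.25 (standard error 0.04, limma adjusted p = 0.0039), a firm fall, as was that of acdh-9 (-0.27), named after its values were seen. acdh-10, related to the medium-chain dehydrogenase, fell from 143 ± 2.55 to 131 ± 1.92 FPKM (SD, n = 3 each), which is a log2 fold change of -0.13 whose adjusted p was 0.0294 as deposited and 0.116 after rescaling to TPM (limma). acdh-3, acdh-7 and acdh-13 had log2 fold changes of -0.04, -0.10 and -0.11 and were not called as deposited. All of them were called lower after median-of-ratios scaling (limma adjusted p of 0.0506, 0.012 and 0.0086), and acdh-7 and acdh-13 after quantile normalization also. acdh-2, given as the member of this family that was not tested, had 0.05, 0.17 and 0.20 FPKM in the controls and 0.03, 0 and 0.04 FPKM in the others, too low to test.

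Among the synthetases, which activate the fatty acid, acs-2 showed the only change past the study's criterion. acs-2 (WBGene00009221, chromosome V from 15567394 to 15569897, plus strand) encodes a synthetase of mitochondrial beta-oxidation that is known for its induction by fasting through the nuclear receptor NHR-49. It had 0.59, 0.31 and 0.87 FPKM in the controls and 2.91, 4.28 and 3.77 FPKM in the RNAi-labelled libraries. The groups did not overlap, but all 6 values were low beside the family's median of 30.5 FPKM. The mean rose 6.19-fold, from 0.590 ± 0.280 to 3.65 ± 0.692 FPKM (SD, n = 3 each), which is a log2 fold change of 2.51 (standard error 0.35, limma adjusted p = 0.00227). Adding a pseudocount of 1 rather than 0.1 gave a log2 fold change of 1.55, since the level in the controls is close to the pseudocount. Even after this rise acs-2 made up little of the family's summed level, which was 854 to 873 FPKM in the controls and 942 to 989 FPKM in the others.

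Among the 21 acs genes tested, 12 rose and 3 fell, beside 31.7% and 11.4% of all genes tested, with a median log2 fold change of 0.21 against 0.12 for all genes. After median-of-ratios scaling 9 rose and 5 fell, beside 18.8% and 19.3% of all genes tested. After quantile normalization 7 rose and 5 fell, beside 16.6% and 18.9% of all genes tested. The firm increases were those of acs-2, acs-3, acs-4, acs-6, acs-10, acs-18 and acs-19. Of the genes tested under all 4 scalings, 15.6% rose firmly. acs-19, related to the enzyme that activates acetate, became the most abundant member, with 93.2, 89.5 and 98.7 FPKM in the controls and 154, 166 and 160 FPKM in the others. The log2 fold change was 0.77 (standard error 0.05, limma adjusted p = 0.000115). acs-4, named after its values were seen, had 96.2, 85.4 and 84.9 FPKM against 141, 156 and 146 FPKM, a log2 fold change of 0.74 (standard error 0.06, limma adjusted p = 0.000393). Both genes were already among the more abundant synthetases in the controls, and their groups did not overlap. acs-3, also named after its values were seen, rose from a mean of 4.83 ± 0.717 to 7.40 ± 0.391 FPKM (SD, n = 3 each).

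The 3 synthetase genes that fell did so firmly, beside 8.56% of the genes tested under all 4 scalings. acs-22 (chromosome X from 8931179 to 8939263) fell most in the family, with 74.6, 76.0 and 71.6 FPKM in the controls and 50.3, 46.3 and 44.3 FPKM in the others, a log2 fold change of -0.66 (standard error 0.06, limma adjusted p = 0.000395). acs-22 and acs-20 both encode relatives of the mammalian fatty acid transport protein FATP4 and serve the barrier of the worm's surface. acs-20 had 78.5, 76.4 and 72.5 FPKM against 83.8, 88.1 and 80.6 FPKM, and its log2 fold change of 0.15 (standard error 0.05, limma adjusted p = 0.0628) lost its call after median-of-ratios scaling, where it was 0.029. The pair therefore started from like levels in the controls and ended at means of 47.0 and 84.2 FPKM. acs-1, which activates branched-chain fatty acids made by the worm itself, was the most abundant member in the controls and fell from 133 ± 5.34 to 104 ± 1.98 FPKM (SD, n = 3 each). This was a log2 fold change of -0.35 (standard error 0.04, limma adjusted p = 0.00135). acs-5, named after its values were seen, fell by 0.20 on the log2 scale.

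The remaining synthetases gave smaller or uncertain changes. acs-11, acs-15, acs-17 and acs-21 rose by 0.13 to 0.59 on the log2 scale and lost their call under at least 1 other scaling. The 6 that were not called as deposited were acs-7, acs-9, acs-12, acs-13, acs-14 and acs-16, with log2 fold changes from -0.18 to 0.21. Of these, acs-7 and acs-13 were called lower after median-of-ratios scaling and after quantile normalization, and acs-12 was called higher after rescaling to TPM. acs-9, named after its values were seen, was the least precise of them, at 1.36 ± 0.0451 and 1.34 ± 0.493 FPKM (SD, n = 3 each, 95% interval of the log2 fold change -0.82 to 0.65). acs-7, which acts on ascarosides and was also named after its values were seen, had 32.3 ± 1.67 and 28.7 ± 2.55 FPKM (SD, n = 3 each), and its groups overlapped. The change was -0.18 on the log2 scale as deposited and -0.297 after median-of-ratios scaling (limma adjusted p = 0.0282).

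The cpt genes encode carnitine palmitoyltransferases, of which those of cpt-1 and cpt-2 were assigned to mitochondria. Transcripts were measured here, not the entry of fatty acids. cpt-1, the outer-membrane carnitine palmitoyltransferase, had 51.2, 51.0 and 50.2 FPKM in the controls and 59.6, 61.8 and 61.4 FPKM in the others. This was a firm increase of 0.26 on the log2 scale (standard error 0.04, limma adjusted p = 0.00305), small but well outside the spread of either group. cpt-2, the inner-membrane enzyme, had 114 ± 1.87 and 111 ± 1.74 FPKM (SD, n = 3 each), which is a log2 fold change of -0.04 (95% interval -0.13 to 0.04) that became 0.0045 after rescaling to TPM and -0.17, a fall, after median-of-ratios scaling. cpt-4 fell firmly, from 44.9, 36.8 and 38.3 FPKM to 28.2, 29.4 and 27.5 FPKM, a log2 fold change of -0.49 (standard error 0.08, limma adjusted p = 0.00479). cpt-5 and cpt-6 were not called as deposited and were called lower after quantile normalization, and cpt-3 was at most 0.29 FPKM in any library. dif-1, the carrier that brings acylcarnitines across the inner membrane, had a log2 fold change of -0.05 (95% interval -0.17 to 0.07) and was called lower after median-of-ratios scaling (-0.17).

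Apart from ech-6, described above, and hacd-1, the genes given here for the later steps of the mitochondrial cycle had small log2 fold changes. ech-1.2, one of a pair of genes for the alpha subunit of the trifunctional protein, had 185 ± 6.59 and 199 ± 5.65 FPKM (SD, n = 3 each). Its log2 fold change of 0.11 (standard error 0.04, limma adjusted p = 0.0911) turned to -0.014 after median-of-ratios scaling. Its partner copy ech-1.1 was expressed far lower, at 6.68 ± 0.713 and 8.01 ± 0.379 FPKM (SD, n = 3 each), with a log2 fold change of 0.26 (limma adjusted p = 0.0831) that lost its call after median-of-ratios scaling. hadb-1, the beta subunit, had a log2 fold change of 0.05 (95% interval -0.03 to 0.14) and was called higher after rescaling to TPM (0.10). kat-1, the thiolase that yields acetyl-CoA, was about level, with 161, 164 and 160.4 FPKM in the controls and 161.5, 166 and 166 FPKM in the others. The log2 fold change was 0.02 (95% interval -0.06 to 0.10), and it turned to -0.099, a fall, after median-of-ratios scaling (limma adjusted p = 0.0639) and to -0.036 after quantile normalization. Of the 20 genes assigned to mitochondria, 12 are acdh genes, so their sum does not describe the later steps. Over all 20 the summed level in the others was 73.3% of the control mean. Without acdh-1 and ech-6, left out with their falls known, the other 18 summed to 1307 to 1340 FPKM in the controls. In the others they summed to 1316 to 1347 FPKM as deposited. hacd-1, a hydroxyacyl-CoA dehydrogenase gene outside the prefixes that was named after its values were seen, rose firmly by 0.58 on the log2 scale.

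In the ech family as a whole, 4 of 10 genes rose and 2 fell, beside 31.7% and 11.4% of all genes tested. After median-of-ratios scaling none of the ech genes rose and 4 fell, beside 18.8% and 19.3% of all genes tested. Only the falls, those of ech-6 and of ech-2 (-0.25, named after its values were seen), were firm. ech-3 had the largest increase, with 16.3, 18.2 and 16.7 FPKM in the controls and 22.5, 23.8 and 18.3 FPKM in the others. The lowest of the latter lay just above the highest control library. The log2 fold change of 0.33 (standard error 0.11, limma adjusted p = 0.056) lost its call after median-of-ratios scaling, after quantile normalization, and without the first or the third control library or the first or the second RNAi-labelled library (adjusted p from 0.128 to 0.158 for these 4). ech-8 rose by 0.32 and lost its call after median-of-ratios scaling and after quantile normalization. ech-4, ech-5, ech-7 and ech-9 were not called as deposited, while ech-5 and ech-7 were called lower after median-of-ratios scaling.

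Most of the peroxisomal oxidase genes fell. Of the 7 acox genes, 5 fell, 1 rose and 1 was not called. Of all genes tested, 11.4% fell and 31.7% rose. The median log2 fold change of the acox genes was -0.39. acox-1.1, acox-1.2, acox-1.3 and acox-1.4 lie head to tail on the plus strand of chromosome I from 12938555 to 12954003. Neighbors are 34 to 343 bases apart. All 4 fell firmly, as did 8.56% of the genes tested under all 4 scalings. acox-1.4 had 84.9, 87.6 and 85.0 FPKM in the controls and 46.2, 46.1 and 40.5 FPKM in the others, 51.6% of the control mean. Its log2 fold change of -0.96 (standard error 0.06, limma adjusted p = 0.000101) stopped just short of the study's criterion and passed it after median-of-ratios scaling (-1.08). acox-1.1, the main oxidase of ascaroside side chains, had 65.9, 71.5 and 68.9 FPKM against 50.4, 47.3 and 48.8 FPKM, a log2 fold change of -0.49 (standard error 0.05, limma adjusted p = 0.000616).

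The middle genes of the cluster were less precise. acox-1.2 was the most abundant oxidase, with 124.6, 170.5 and 133.8 FPKM in the controls and 110.5, 110.2 and 102.8 FPKM in the others, a log2 fold change of -0.39 (standard error 0.11, limma adjusted p = 0.0369). The second control library was high for this gene, and without the third RNAi-labelled library the adjusted p was 0.105. acox-1.3, given to complete the cluster and named after its values were seen, had 4.96 to 6.82 FPKM in the controls and 4.19 to 4.63 FPKM in the others. The summed level of the 4 genes was 282 to 336 FPKM in the controls and 196 to 211 FPKM in the others, 67.6% of the control mean. These genes are similar in sequence and close together, so reads could have been split between them. No pair of the 61 genes had identical values in all libraries, which is the only sign of shared reads that FPKM allows to be checked.

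The gene that rose was acox-1.5 (chromosome III from 9586618 to 9592192). It rose firmly from 31.5, 34.6 and 31.7 FPKM to 53.0, 52.6 and 52.8 FPKM, a log2 fold change of 0.70 (standard error 0.05, limma adjusted p = 0.000182). In the control libraries its level was 32.6 ± 1.75 FPKM, below acox-1.1 and acox-1.4. In the RNAi-labelled libraries its level of 52.8 ± 0.186 FPKM (SD, n = 3 each) was above theirs, at 48.9 and 44.3 FPKM. acox-1.6 fell by 0.21 on the log2 scale and lost its call after rescaling to TPM, and acox-3 was not called under any of the 4 scalings.

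The genes for the steps after the oxidases gave small changes that depended on the scaling. maoc-1, the peroxisomal hydratase, had 61.4, 66.6 and 64.5 FPKM in the controls and 74.8, 71.5 and 66.3 FPKM in the others. The groups overlapped, and the log2 fold change was 0.14 (standard error 0.06, limma adjusted p = 0.108), which became an increase after rescaling to TPM (0.19, adjusted p = 0.0293). daf-22, the thiolase that ends each round and without which no dauer pheromone is made, had 100.1, 94.05 and 99.9 FPKM against 97.2, 91.5 and 83.9 FPKM. On the log2 scale the change was -0.11 (95% interval -0.26 to 0.04) as deposited and -0.23, a fall (limma adjusted p = 0.0269), after median-of-ratios scaling. dhs-28, which encodes the dehydrogenase between them, had 237 ± 2.00 and 252 ± 7.42 FPKM (SD, n = 3 each), which is a log2 fold change of 0.09 (limma adjusted p = 0.0954) that turned to -0.034 after median-of-ratios scaling. Over the 9 genes assigned to peroxisomes, the summed level was 526 to 577 FPKM in the controls and 442 to 486 FPKM in the others. The mean of this sum went from 546 to 466 FPKM. That of the 4 clustered acox genes within it went from 304 to 205 FPKM. The sum of the cluster thus fell by more than that of all 9 genes, so the fall was not spread over the compartment.

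A gene placed here by its name, with the peroxisomal membrane protein family (pmp), changed more than any of these enzymes. Where its product sits and what it carries were not measured. pmp-5, an ABC transporter gene on chromosome V from 6662191 to 6665813, had 73.6, 87.7 and 76.1 FPKM in the controls and 21.7, 21.6 and 21.6 FPKM in the others. It passed with a log2 fold change of -1.86 (standard error 0.07, limma adjusted p = 1.36e-05), a fall to 27.4% of the control mean. Of the other 4 pmp genes, pmp-2 and pmp-4 fell firmly by 0.42 and 0.23 on the log2 scale, pmp-3 rose by 0.16 without holding its call after median-of-ratios scaling, and pmp-1 was not called as deposited but fell after median-of-ratios scaling (-0.21). In the whole list of 34 pathway genes outside the prefixes, 8 rose and 8 fell, beside 31.7% and 11.4% of all genes tested, and the pair that passed, hphd-1 and pmp-5, were both lower. After median-of-ratios scaling 2 of the 34 rose and 16 fell, beside 18.8% and 19.3% of all genes tested. After quantile normalization 3 rose and 14 fell, beside 16.6% and 18.9% of all genes tested.

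By compartment, 8 of the 19 tested genes assigned to mitochondria rose and 5 fell, and 1 of the 9 assigned to peroxisomes rose and 5 fell, beside 31.7% and 11.4% of all genes tested. The balance of the mitochondrial genes turned with the scaling, since 5 rose and 11 fell under median of ratios and 5 rose and 9 fell under quantile normalization. That of the peroxisomal genes was 1 and 6 under both, with the adjacent genes acox-1.1 to acox-1.4 among those that fell. Of all genes tested, 18.8% rose and 19.3% fell under median of ratios, and 16.6% rose and 18.9% fell under quantile normalization. Among the 30 tested genes left unassigned, 14 rose and 5 fell as deposited, 8 rose and 9 fell after median-of-ratios scaling, and 6 rose and 9 fell after quantile normalization. The compartments come from general knowledge of these enzymes, and no localization was measured. Summed over all 61 genes, the level was 4206 to 4411 FPKM in the controls and 3546 to 3706 FPKM in the others, 84.6% of the control mean. acdh-1 alone went from 17.8 to 18.6% of that sum down to 6.56 to 7.36%.

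**Figure D4:**
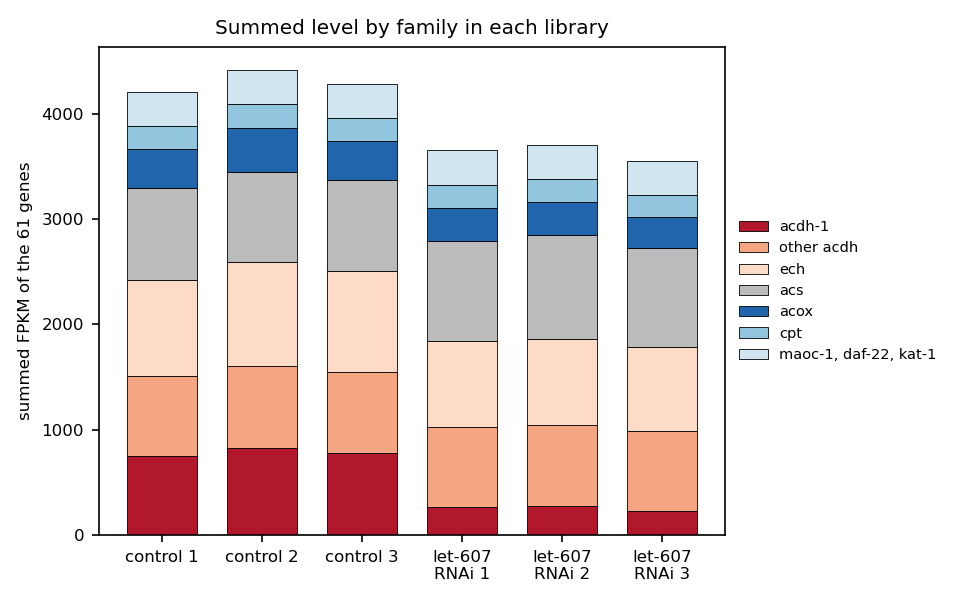
Summed FPKM of the 61 genes in each library, stacked by family with acdh-1 shown apart. The sum drops from 4206 to 4411 FPKM in the controls to 3546 to 3706 FPKM in the RNAi-labelled libraries, and the acdh-1 segment shrinks from a mean of 783 to 256 FPKM.

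Some members that lie next to each other outside the acox cluster differed in the sign of their log2 fold change, but not by firm changes in both. acdh-12 and maoc-1 lie on opposite strands of chromosome II with 634 bases between them. Their log2 fold changes were -0.25 and 0.14, of which only the former was called as deposited. ech-9 and ech-8 lie on the minus strand of chromosome IV with 1296 bases between them. Theirs were -0.33 and 0.32, of which only the latter was called. That call was lost after median-of-ratios scaling and after quantile normalization. acdh-10 and acdh-7, with 114 bases between them on the minus strand of chromosome X, had log2 fold changes of -0.13 and -0.10.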

How the data were processed

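Per the paper's methods, the authors prepared stranded mRNA libraries from L4 worms, aligned paired reads to WBcel235 with TopHat and estimated expression with Cufflinks. The submitters' processing notes name fastp, HISAT and RSEM instead, so the tool behind the deposited FPKM is not certain. The authors' deposited FPKM were used as they stand, for 3 control libraries and 3 RNAi-labelled libraries. Of 48197 lines, 1 was broken and 1418 repeated an earlier gene with the same values, which left 46778 genes. Symbols and places came from Ensembl annotation release 115 of WBcel235. In it 46603 identifiers were found, and all 61 genes of the set had values.

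Genes whose mean reached 0.5 FPKM entered limma 3.58.1 (R 4.3.3) on log2(FPKM + 0.1), with a mean-variance trend and no covariates. Benjamini-Hochberg adjustment covered the 15453 genes tested. The fit was checked on simulated data. Tables were made with Python 3.11.15, pandas 2.3.3 and numpy 2.4.6. FPKM give no fragment counts, so precision rests on 3 libraries per group.

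Genes named with full values were those past the study's criterion, the largest change in each direction and the highest level of each family, and a list by role. Others with values are marked or complete a family or cluster. The set, the lists and the tests were chosen with earlier results of these data known. The alternatives were other pseudocounts, filters, scalings, priors and thresholds, a replicate block, and leaving out each library. The list of pathway genes outside the prefixes and the tissue markers were drawn up by hand.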

Additional observations from a re-analysis of the deposited data

How the results depend on the processing

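acs-2 and acdh-1 passed under each alternative that tested them. With a filter at a mean of 5 FPKM, acs-2 was no longer tested and 0 members passed as higher in limma. At an unadjusted p under 0.05, 0 of the 53 members then tested were past that fold as higher, the highest log2 fold change being 0.77. After median-of-ratios scaling and after quantile normalization, 2 members passed as lower, acox-1.4 being added. The counts at any fold (23 higher and 15 lower as deposited) were 14 and 26 after median-of-ratios scaling, 12 and 24 after quantile normalization, and 15 and 14 at an adjusted p under 0.05. They were 25 and 13 after rescaling to TPM. With the replicate block the counts of members were 18 and 15, beside 28.7% and 10.4% of all genes tested. Leaving out 1 library in turn gave 16 to 22 and 12 to 15, beside 23.8 to 30.2% and 9.07 to 10.8% of all genes tested. Same-numbered libraries did not deviate together (correlations of -0.058, 0.0028 and -0.018), so the numbers were not taken as pairs.

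For let-607 the log2 fold change became 0.177 after median-of-ratios scaling (adjusted p = 0.151 from limma), 0.22 after quantile normalization (adjusted p = 0.103 from limma) and between 0.253 and 0.39 with 1 library left out, where its call was lost without the third control library (0.255) or the second RNAi-labelled library (0.288). Signs turned after median-of-ratios scaling for ech-1.2 (-0.0142), kat-1 (-0.0988) and dhs-28 (-0.0339), after quantile normalization for kat-1 (-0.0362) and after rescaling to TPM for cpt-2 (0.00451). The cause was not tested. Over the 29 genes followed through these alternatives, 436 of 492 values kept their direction and their side of the threshold, 43 lost the call and 8 gained it. FPKM give no depth, so the limit on the lowest genes (acs-2, acs-9, ech-9) is not known.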

Other observations

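Of 11 genes for peroxins (prx), which assemble peroxisomes, 1 rose and 1 fell, beside 31.7% and 11.4% of all genes tested. After median-of-ratios scaling 1 rose and 3 fell, beside 18.8% and 19.3% of all genes tested. After quantile normalization 1 rose and 4 fell, beside 16.6% and 18.9% of all genes tested. prx-14, part of the docking complex for imported proteins, rose from 29.7, 25.7 and 25.4 FPKM to 34.5, 35.9 and 33.7 FPKM (log2 fold change 0.37, limma adjusted p = 0.00961). prx-3, needed to form the peroxisomal membrane, fell from 24.1, 25.7 and 25.6 FPKM to 21.2, 18.9 and 16.3 FPKM (log2 fold change -0.42, limma adjusted p = 0.0178). Both calls held under all 4 scalings. The other 9 had log2 fold changes from -0.17 to 0.58, the highest being that of prx-11, which had at most 1.85 FPKM in any library. ctl-2, the peroxisomal catalase, rose from 77.4 ± 1.81 to 90.1 ± 6.12 FPKM (SD, n = 3 each) and lost its call after median-of-ratios scaling.

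In leucine breakdown, which feeds the same mitochondrial electron acceptors, ivd-1, isovaleryl-CoA dehydrogenase, had 151 ± 6.03 and 151.5 ± 2.78 FPKM (SD, n = 3 each), which is a log2 fold change of 0.0038 (95% interval -0.10 to 0.10) that became -0.118, a fall, after median-of-ratios scaling (limma adjusted p = 0.0855). mccc-1 fell by 0.15 on the log2 scale (limma adjusted p = 0.0271), a call that was lost after rescaling to TPM. let-721, the electron-transfer flavoprotein dehydrogenase that takes electrons from all acyl-CoA dehydrogenases, had 94.9, 94.9 and 95.2 FPKM in the controls and 91.8, 95.2 and 93.0 FPKM in the others, and was called lower after median-of-ratios scaling (log2 fold change -0.148).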
